A study of Mus musculus with 12 samples.

Results

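The glucose and amino acid transporter genes of the mouse were followed in 8-cell embryos after knockdown (KD) of Nr5a2, of Klf5 or of both. The genes were chosen by symbol, as the protein-coding genes numbered in the solute carrier families SLC1, SLC2, SLC3, SLC6, SLC7, SLC36 and SLC38. The choice gave 73 genes of the 55401 listed, with 7 in SLC1, 12 in SLC2, 2 in SLC3, 21 in SLC6, 16 in SLC7, 4 in SLC36 and 11 in SLC38. One of them, Slc7a6os, is named only for lying opposite Slc7a6 and is not a transporter, but it meets the rule and was kept.

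Each library held the polyadenylated RNA of 10 pooled 8-cell embryos, and there were 2 control libraries, 3 with Nr5a2 KD, 3 with Klf5 KD and 4 with both factors knocked down (double KD, dKD). Zygotes of superovulated B6129F1 females, 3 to 5 weeks old, mated with B6CBAF1 males, received 15 µM control siRNA, 5 µM Nr5a2 siRNA or 10 µM Klf5 siRNA. The concentrations combined in the dKD are not named in the sources used here, and every embryo, controls included, also received 150 ng/µl H2B-EGFP RNA. A knockdown by injected siRNA is partial, and the pools average over embryos of both sexes in proportions that are not given.

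Solute carriers of these families move sugars, amino acids and related molecules such as creatine and taurine across membranes. SLC2 members carry glucose and other sugars down their gradient, SLC1, SLC6 and part of SLC38 couple amino acid uptake to sodium, and several SLC7 proteins reach the surface only when bound to a heavy chain of the SLC3 family. The cleavage embryo is known for living on pyruvate and lactate before it turns to glucose, and for taking up amino acids both as nutrients and as osmolytes. Nr5a2 is an orphan nuclear receptor and Klf5 a Krüppel-like zinc finger factor, and both are transcription factors of the early embryo.

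The libraries held 6676683 to 12560926 counts on genes, and the transporter genes took 0.0375 to 0.0487% of them. Nr5a2 stood at 225 and 210 CPM (counts scaled to a common library size by TMM over the 12 libraries) in control and at 24.1 to 38.9 CPM in the Nr5a2 KD and dKD libraries. Klf5 stood at 444 and 467 CPM in control, at 72.9 to 144 CPM in Klf5 KD and at 40 to 82.2 CPM in dKD. Klf5 was also at 109 to 159 CPM in Nr5a2 KD, where it fell by 1.68 on the log2 scale (SE 0.225, adjusted p = 0.0013 by edgeR's quasi-likelihood test), so Nr5a2 KD libraries are low in both factors. With ERCC counts as library sizes that change in Klf5 was -0.96 and not called (adjusted p = 0.132). In dKD against Klf5 KD Klf5 differed by -0.98 (SE 0.304, adjusted p = 0.0507), with overlapping groups, so a lower Klf5 level cannot be told apart there from the loss of Nr5a2. The 10 marker genes of the cleavage embryo and morula summed to 14678 to 29708 CPM in every library, nearly all of it Dppa3 (14445 to 29534 CPM), those of the oocyte to 66.1 to 131 CPM, those of 2-cell activation to 14.4 to 29.7 CPM and those of cumulus and granulosa cells to 0.709 to 3.29 CPM. Of the embryo markers Tdgf1 was called lower (-4.34, adjusted p = 0.000321) and Krt8 (2.21, adjusted p = 0.01) and Krt18 (2.68, adjusted p = 0.0221) higher in Nr5a2 KD against control. In dKD against control Tdgf1 was also called lower (-4.27, adjusted p = 0.00265), as was the oocyte marker Nlrp5 (-1.17, adjusted p = 0.0324), and the 2-cell marker Zfp352 was called higher (2.81, adjusted p = 0.0156). In dKD against Klf5 KD Tdgf1 was called lower (-3.88, adjusted p = 0.00154) and Krt8 higher (2.10, adjusted p = 0.0367). The part of these markers in the transporter results was not tested. Among the cumulus markers Ptx3, Lhcgr and Hsd3b1 had no count in any of the 12 libraries. The share of counts on mitochondrially encoded genes was 12.9 and 13.2% in control but under 10% in Nr5a2 KD replicate 3 (6.18%), Klf5 KD replicates 1 and 2 (4.41 and 8.28%) and dKD replicates 3 and 4 (6.75 and 6.17%). It is given beside the transporters that moved with it. A limit of 10% leaves 2 libraries each of control, Nr5a2 KD and dKD but 1 of Klf5 KD, which is then assumed to vary like the other groups.

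In control embryos 23 of the 73 genes (31.5%) reached 1 CPM in both libraries, against 9866 of 21897 protein-coding genes (45.1%). Another 21 had no count in either control library, which allows each of them up to 3 counts over the 2 libraries, or 0.214 CPM. The remaining 29 had some counts but stayed under 1 CPM in at least 1 control library. The transcripts that were present were mostly of modest level. To compare genes with each other, levels per length of transcript (TPM) were used, and the median of the detected genes was 2.29 TPM against 5.77 TPM for all detected protein-coding genes.

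Slc6a8, the creatine transporter, had the highest level in control, at 21 and 25.7 TPM, which placed it at percentile 75.8 of the detected protein-coding genes. Slc7a6, a light chain that exchanges cationic for neutral amino acids, followed at 16.7 and 14.5 TPM, and Slc6a6, the taurine transporter, at 12.7 and 16.2 TPM. Slc7a6os was at 10.9 and 12.6 TPM, and Slc1a1, a glutamate, aspartate and cysteine transporter, at 12.5 and 10.7 TPM. Slc6a8 was clear of the next gene in both libraries, while the ranges of Slc7a6 and Slc6a6 overlapped, as did those of Slc7a6os and Slc1a1. These 5 genes carried 65% of the summed level of the whole set, which was 117 and 119 TPM. The exons of Slc1a1 share 31.9% of their bases with the gene 4430402I18Rik, and the counting ignored strand, so reads of both genes cannot be told apart there.

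Below these came Slc3a2, the CD98 heavy chain, at 7.77 and 3.23 TPM, and Slc6a14, a broad carrier of neutral and cationic amino acids, at 5.23 and 4.94 TPM. Slc1a7, a glutamate transporter, averaged 3.79 TPM, and Slc1a5, which exchanges glutamine and other small neutral amino acids, 2.83 TPM. From Slc3a2 down most neighbours in this order overlapped in their 2 libraries. Of the 12 glucose transporter genes only Slc2a8, a sugar carrier of intracellular membranes, and Slc2a3, the high-affinity glucose transporter GLUT3, were detected, at means of 2.39 and 2.29 TPM. Slc2a1, which encodes the widespread GLUT1, had 1 count in each control library, and Slc2a2, the GLUT2 of liver and pancreas, had none. The neutral amino acid carrier Slc38a4 (2.32 TPM), the serotonin transporter Slc6a4 (1.97 TPM), the lysosomal Slc38a7 (1.6 TPM) and the neutral amino acid transporter Slc6a15 (1.49 TPM) completed the 15 highest.

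**Figure D1:**
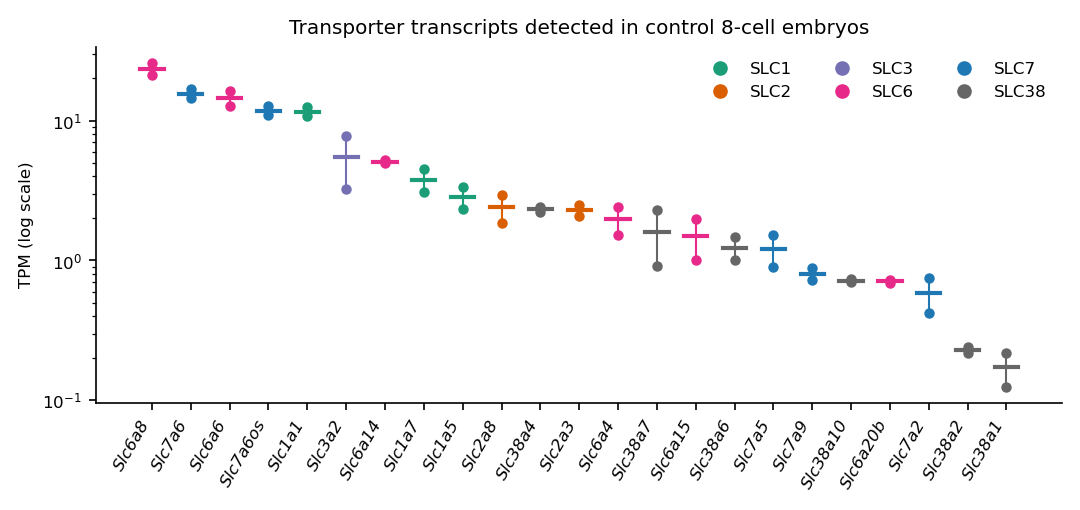
Level of the 23 transporter genes that reached 1 CPM in both control libraries, in TPM on a log scale, with a point for each of the 2 libraries joined by a line, a short bar for their mean and a colour for each family. Slc6a8 is highest with a mean of 23.4 TPM, and SLC36 has no gene in the plot.

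By family, SLC6 had 6 of 21 genes detected and summed to 48.5 TPM, SLC7 5 of 16 and 31 TPM, SLC1 3 of 7 and 18.4 TPM, and SLC38 6 of 11 and 7.54 TPM. SLC2 had 2 of 12 genes and 5.72 TPM, SLC3 1 of 2 and 5.75 TPM, and SLC36, the proton-coupled amino acid carriers, 0 of 4. Among the genes not detected were Slc7a1, the widespread cationic amino acid transporter, and Slc7a3, another cationic carrier, both without a count in control. Slc6a9, the glycine transporter GLYT1, was at 0.277 and 0.268 CPM, under the 0.403 to 0.455 CPM that 3 counts are worth in those libraries. Slc7a11, the cystine exchanger, had 0 and 0.134 CPM. Slc7a8 (LAT2), Slc1a4, a neutral amino acid exchanger, and the proline carrier Slc6a20a had at most 2.83 counts in a control library. At the same threshold in every library, 27 genes were detected in Nr5a2 KD, 22 in Klf5 KD and 28 in dKD. Slc1a3, Slc7a7 and Slc38a8 passed in all 3 knockdown groups and not in control, while Slc7a2 passed only in control. The share of all protein-coding genes detected in each knockdown group is not given, so these counts have no background. Slc38a8 missed the threshold in 1 control library only, at 3.03 and 0.939 CPM. Its levels in Klf5 KD (2.01 to 3.23 CPM) and dKD (2.01 to 3.12 CPM) overlapped control. Slc1a3 also missed it in 1 control library, at 1.21 and 0.134 CPM. Passing the threshold is therefore no measure of a gain.

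A gene was tested in a comparison when its counts passed edgeR's filter (a minimum of 10 counts in enough libraries), and it was called when the change reached 2-fold and its adjusted p lay under 0.05. Of the 73 genes, 33 were tested in at least 1 of 5 pairwise comparisons, 26 in all 5 and 40 in none, and 8 were called at least once by edgeR. All 8 were called in Nr5a2 KD against control or dKD against Klf5 KD, where 1822 of all genes were called at least once. A gene with few counts in one group passes the filter only through the other group, as Slc38a11 did in Nr5a2 KD against control and Slc7a7, Slc38a2, Slc38a8 and Slc38a9 did in both Nr5a2 KD and dKD against control. A higher value is favoured for such a gene by the filter itself, and its p-value is to be read with that. Loss of Nr5a2 was measured in 2 comparisons that have no library in common, Nr5a2 KD against control and dKD against Klf5 KD. Replicates 1 to 3 of Nr5a2 KD and dKD deviated together from their group means, so these 2 comparisons are not fully independent. Loss of Klf5 was likewise measured as Klf5 KD against control and as dKD against Nr5a2 KD. In the second of these Klf5 was already at 30.6% of control in Nr5a2 KD, and its further change of -1.31 (SE 0.26, adjusted p = 0.999) was not called by edgeR, although DESeq2 called it (-1.32, adjusted p = 0.0166).

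Nr5a2 KD against control gave 2 lower genes, Slc6a6 and Slc6a8, of 31 tested, and 4.42% of all 13262 tested genes were called lower. It gave 3 higher genes, Slc3a2, Slc7a7 and Slc38a11, with 3.45% of all genes called higher. The dKD against control gave 1 lower gene, Slc6a6, and 3 higher genes, Slc3a2, Slc6a15 and Slc38a11, of 32 tested, with 3.85 and 3.38% of all genes called lower and higher. The dKD against Klf5 KD gave the same 2 lower genes, Slc6a6 and Slc6a8, and 4 higher genes, Slc1a5, Slc1a7, Slc3a2 and Slc6a15, of 29 tested, with 5.41 and 5.38% of all genes called lower and higher. Nr5a2 KD and dKD share their control libraries, so their values against control are not separate evidence.

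**Figure D2:**
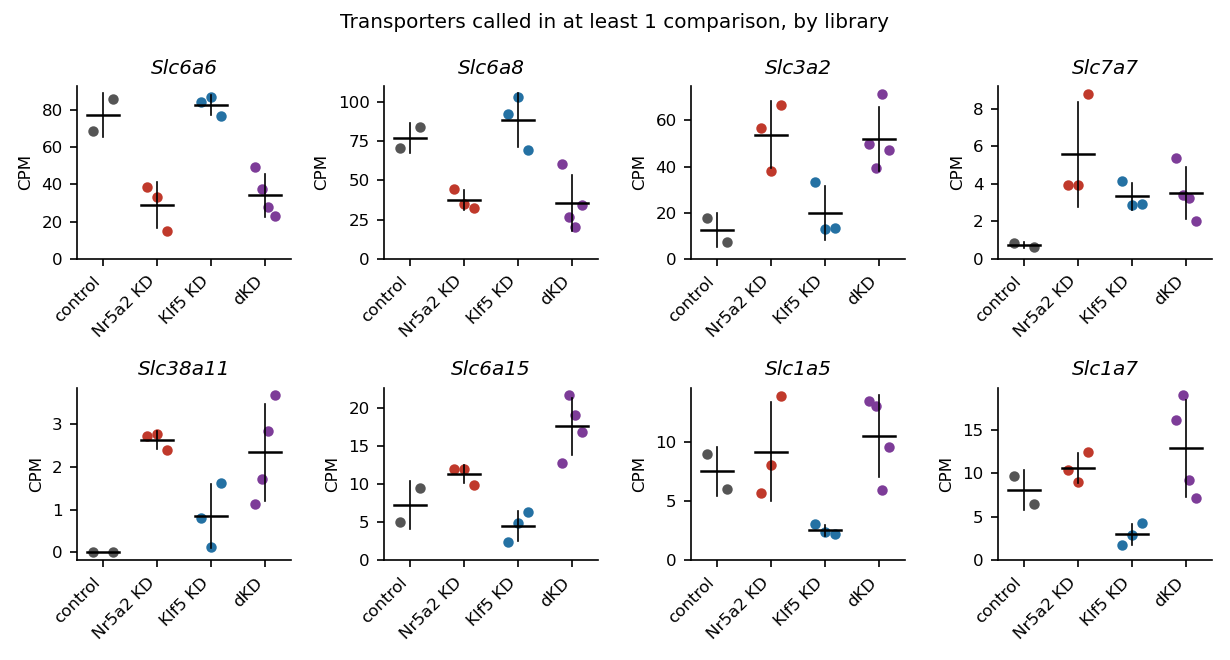
CPM of the 8 transporter genes called in at least 1 comparison, a point for each of the 12 libraries, with a horizontal line for the group mean and a vertical line for 1 SD on each side. Slc6a6 and Slc6a8 are lower and Slc3a2 is higher in all 7 libraries with Nr5a2 siRNA than in both control libraries.

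Slc6a6 (GRCm38 chr6:91684053-91759066) imports taurine, an osmolyte abundant in reproductive tract fluid. It stood at 68.8 and 85.7 CPM in control, 84.2, 87.2 and 76.9 CPM in Klf5 KD, 38.8, 33.1 and 14.9 CPM in Nr5a2 KD, and 49.2, 37.3, 27.6 and 23.1 CPM in dKD. Every library with Nr5a2 siRNA lay under every library without it, and the Nr5a2 KD mean was 37.4% of the control mean. The share of all genes whose libraries separate in this way is not given, so such a separation, here and below, is a description only. The change was -1.40 (log2, SE 0.329, adjusted p = 0.0215) in Nr5a2 KD against control and -1.26 (SE 0.269, adjusted p = 0.00873) in dKD against Klf5 KD, the comparison without those libraries. In dKD against control it was -1.14 (SE 0.285, adjusted p = 0.032). The lowest values were those of the libraries with a mitochondrial share under 10%, Nr5a2 KD replicate 3 and dKD replicates 3 and 4. Among libraries at 10% or more, an alternative chosen after seeing the data, Slc6a6 was still called in Nr5a2 KD against control (-1.08, adjusted p = 0.00839), but not in dKD against control (-0.81, adjusted p = 0.064) or dKD against Klf5 KD (-0.81, adjusted p = 0.156, with 1 Klf5 KD library). With that share as a covariate the change in Nr5a2 KD was -0.83 (adjusted p = 0.152). With ERCC sizes the Slc6a6 call was lost in all 3 comparisons (-0.73 in Nr5a2 KD against control). The replicate block ended it in dKD against control and dKD against Klf5 KD. Leaving out either control library ended it in Nr5a2 KD and in dKD against control.

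Slc6a8 (chrX:73673150-73682502) imports creatine, the carrier of high-energy phosphate, and lies on the X chromosome. Its levels were 70.3 and 83.7 CPM in control, 92.4, 103 and 69.1 CPM in Klf5 KD, 44.6, 34.8 and 32.5 CPM in Nr5a2 KD, and 60.6, 26.9, 20.3 and 34.2 CPM in dKD. Again no library with Nr5a2 siRNA reached the lowest library without it, and dKD replicate 1 stood closest. The change was -1.02 (SE 0.233, adjusted p = 0.0188) in Nr5a2 KD against control and -1.30 (SE 0.329, adjusted p = 0.0205) in dKD against Klf5 KD. In dKD against control it was -1.08 (SE 0.349) and missed the threshold at an adjusted p of 0.0809, while DESeq2 called it (-1.10, adjusted p = 0.0321) and without dKD replicate 1 it was -1.46 (adjusted p = 0.00763). The sex of the pooled embryos is not given, and its part in the level of this X-linked gene was not tested. Among libraries at 10% mitochondrial counts or more the change was -0.93 (adjusted p = 0.0175) in Nr5a2 KD, under 2-fold, and -0.64 (adjusted p = 0.402) in dKD against Klf5 KD, with 1 Klf5 KD library. In Nr5a2 KD the call was also lost under 5 other settings, among them the mitochondrial covariate (-0.96, adjusted p = 0.0639), 1 fit over all libraries (-1.05, adjusted p = 0.0914) and ERCC sizes (-0.26, adjusted p = 0.702).

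Slc3a2 (chr19:8706882-8723369) encodes the CD98 heavy chain, the partner that brings the light chains of leucine, cationic amino acid and cystine exchange to the cell surface. It had 17.6 and 7.11 CPM in control, 33.5, 13.1 and 13.4 CPM in Klf5 KD, 56.7, 38 and 66.6 CPM in Nr5a2 KD, and 49.9, 39.5, 71.6 and 47.2 CPM in dKD. All 7 libraries with Nr5a2 siRNA were above all 5 without it, although Klf5 KD replicate 1, the library with the lowest mitochondrial share, came close. In each knockdown group the library with the lowest or second lowest mitochondrial share held the highest Slc3a2. The change was 2.16 (SE 0.389, adjusted p = 0.00625) in Nr5a2 KD against control, 2.13 (SE 0.391, adjusted p = 0.00861) in dKD against control and 1.38 (SE 0.353, adjusted p = 0.0212) in dKD against Klf5 KD. Among libraries at 10% or more it was 1.98, 1.89 and 1.76 with adjusted p-values of 0.00639, 0.0233 and 0.0125, past the threshold in all 3, although the last of these has 1 Klf5 KD library. With the mitochondrial share as a covariate it was 1.73, 1.89 and 1.63 with adjusted p-values of 0.0282, 0.0154 and 0.00193, called in all 3. In dKD against Klf5 KD the call was lost with ERCC sizes (1.49, adjusted p = 0.0828). The control libraries differed more than 2-fold from each other, and without control replicate 2 the changes against control were 1.65 and 1.62, with adjusted p-values of 0.0741 and 0.105.

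Among the transporter genes Slc3a2 passed from rank 6 in control to rank 1 in Nr5a2 KD, at a mean of 27.8 TPM (SD 10.8, n = 3), and in dKD, at 28.4 TPM (SD 8.76, n = 4). In Klf5 KD it stayed at rank 6, at 9.06 TPM (SD 5.26, n = 3). Slc6a8 moved the other way, from rank 1 in control and Klf5 KD to rank 4 in Nr5a2 KD and dKD, at 12.7 and 12.8 TPM.

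The light chains that pair with Slc3a2 varied less than the heavy chain. Summed over Slc7a5, Slc7a6, Slc7a7, Slc7a8, Slc7a10 and Slc7a11, they came to 17.9 and 16.4 TPM in control, 21.8 to 30 TPM in Nr5a2 KD, 22.4 to 27.6 TPM in Klf5 KD and 24.8 to 32.4 TPM in dKD. Slc7a6 made up 70.6 to 92.8% of that sum in every library. The heavy to light ratio was 0.433 and 0.197 in control and 0.568, 0.232 and 0.253 in Klf5 KD. It was 1.16, 0.758 and 1.32 in Nr5a2 KD and 0.834, 0.812, 1.25 and 1.08 in dKD, so the ranges with and without Nr5a2 siRNA did not overlap. These ratios are a description of transcripts chosen after Slc3a2 was seen to rise, and no test was made of them. The other heavy chain, Slc3a1, and its partner Slc7a9, which together carry cystine and cationic amino acids in kidney and gut, stayed at 2.41 and 3.77 CPM or less in every library, and the exons of Slc3a1 share 26.5% of their bases with Prepl.

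**Figure D3:**
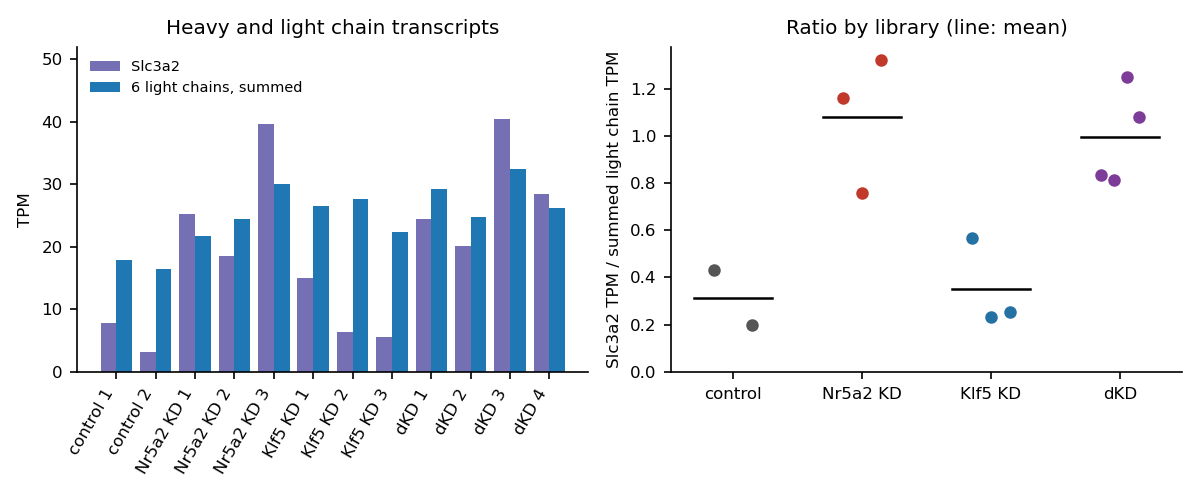
Left, TPM of the heavy chain Slc3a2 and summed TPM of its 6 light chains in each of the 12 libraries. Right, the ratio of heavy to light by group, a point per library and a line for the mean, at 0.197 to 0.568 in the 5 libraries without Nr5a2 siRNA and 0.758 to 1.32 in the 7 with it.

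Among single light chains Slc7a5, the leucine transporter LAT1, stood at 2.12 and 3.49 CPM in control, 7.43, 9.64 and 5.65 CPM in Nr5a2 KD, 3.06, 2.72 and 2.79 CPM in Klf5 KD and 8.47, 5.39, 5.31 and 5.31 CPM in dKD. The libraries with Nr5a2 siRNA were all above those without it, but edgeR did not call the change, at 1.44 (SE 0.476, adjusted p = 0.0834) in Nr5a2 KD against control and 1.11 (SE 0.38, adjusted p = 0.0767) in dKD against Klf5 KD. It passed in dKD against Klf5 KD by DESeq2 (1.09, adjusted p = 0.05) and with total counts (1.32, adjusted p = 0.0334), and against control in Nr5a2 KD and dKD with ERCC sizes (2.16, adjusted p = 0.0373, and 1.94, adjusted p = 0.0236). Slc7a7 (chr14:54369442-54417780), which exchanges cationic amino acids, had 0.834 and 0.604 CPM in control, 3.95, 3.93 and 8.79 CPM in Nr5a2 KD, 4.14, 2.89 and 2.94 CPM in Klf5 KD, and 5.37, 3.4, 3.25 and 2.01 CPM in dKD. Each knockdown library exceeded both controls, whichever siRNA was used, but the control values rest on 5.5 and 4.5 counts. Slc7a7 rose in Nr5a2 KD against control (2.96, SE 0.688, adjusted p = 0.0202), and it was 2.30 (SE 0.671, adjusted p = 0.0577) in dKD against control, 2.20 (SE 0.695, adjusted p = 0.508) in Klf5 KD against control and 0.09 (adjusted p = 0.929) in dKD against Klf5 KD. In dKD against control it was called under 7 of 9 alternative settings, among them DESeq2 (2.31, adjusted p = 0.0263) and the mitochondrial covariate (2.66, adjusted p = 0.0401). Its exons share 7% of their bases with Oxa1l, so part of its reads could belong to that gene. Among libraries at 10% mitochondrial counts or more its change in Nr5a2 KD was 2.45 (adjusted p = 0.0525), and with the mitochondrial covariate 2.16 (adjusted p = 0.111), so neither kept the call.

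Slc38a11 (chr2:65316430-65364034), a poorly characterised relative of the neutral amino acid carriers, had no count in either control library. It had 23, 20 and 19 counts in Nr5a2 KD, 9, 1 and 11 in Klf5 KD and 9, 12, 24 and 31 in dKD. It was tested against control only because the knockdown libraries hold counts. Against the 3 counts that the controls together could hide, it was at least 12.3-fold higher in Nr5a2 KD (adjusted p = 0.0102) and at least 11.2-fold higher in dKD (adjusted p = 0.0165). In dKD the higher counts, 24 and 31, were in replicates 3 and 4, the libraries with a mitochondrial share under 10%, and with replicates 1 and 2 alone the gene was not tested against control. Klf5 KD and dKD overlapped, and that difference was not called (1.49, SE 0.74, adjusted p = 0.22).

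Slc1a5 (chr7:16781340-16798274) and Slc1a7 (chr4:107968332-108013532), carriers of glutamine and of glutamate, showed another pattern. Slc1a5 was at 8.94 and 6.04 CPM in control, 5.66, 7.99 and 13.8 CPM in Nr5a2 KD, only 3.06, 2.36 and 2.2 CPM in Klf5 KD, and 13.4, 13, 5.91 and 9.57 CPM in dKD. Slc1a7 was at 9.7 and 6.44 CPM in control, 10.4, 8.95 and 12.4 CPM in Nr5a2 KD, 1.8, 2.89 and 4.26 CPM in Klf5 KD, and 16.1, 19, 9.21 and 7.2 CPM in dKD. For both genes Klf5 KD was the low group, below every library of the other 3 groups. They rose in dKD against Klf5 KD by 2.04 (SE 0.395, adjusted p = 0.00513) for Slc1a5 and 2.15 (SE 0.446, adjusted p = 0.00748) for Slc1a7, calls that held under the 9 alternative settings, one of which has a single Klf5 KD library, and with any 1 of the 7 libraries left out. Against control, Nr5a2 KD gave 0.33 (SE 0.446, adjusted p = 0.72) for Slc1a5, a value whose sign turned under some alternatives, and 0.43 (SE 0.364, adjusted p = 0.532) for Slc1a7. In Klf5 KD and dKD the lowest Slc1a7 values were those of the libraries with a mitochondrial share under 10%. In Nr5a2 KD the library under 10%, replicate 3, held the highest Slc1a7. The part of that share was not tested.

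Slc6a15 (chr10:103367783-103419377), a sodium-coupled carrier of branched-chain amino acids and proline, stood at 5 and 9.53 CPM in control, 12, 12 and 9.92 CPM in Nr5a2 KD, 2.43, 4.84 and 6.31 CPM in Klf5 KD, and 12.8, 21.7, 19 and 16.8 CPM in dKD. Klf5 KD overlapped control, and dKD lay above every other library. The change was 1.98 (SE 0.37, adjusted p = 0.00417) in dKD against Klf5 KD and 1.30 (SE 0.362, adjusted p = 0.0479) in dKD against control. In Nr5a2 KD against control it was 0.66 (SE 0.38, adjusted p = 0.327). Among libraries at 10% mitochondrial counts or more, neither call was made, at 1.46 (adjusted p = 0.119, with 1 Klf5 KD library) and 1.26 (adjusted p = 0.11). The call against control was also lost with 1 fit over all libraries (1.27, adjusted p = 0.061) and with the mitochondrial covariate (1.24, adjusted p = 0.0778). With each of the 6 libraries left out in turn, that call was kept in 1 fit.

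EdgeR called no glucose transporter in any comparison. Slc2a3 was at 9.7 and 11.3 CPM in control, 15.4, 15.8 and 18.2 CPM in Nr5a2 KD, 7.56, 11.5 and 6.46 CPM in Klf5 KD and 19.1, 17.3, 14.5 and 13.6 CPM in dKD, with no overlap between libraries with and without Nr5a2 siRNA. The change was 0.68 (SE 0.306, adjusted p = 0.198) in Nr5a2 KD against control and 0.93 (SE 0.305, adjusted p = 0.0629) in dKD against Klf5 KD. With total counts Slc2a3 was called in dKD against Klf5 KD (1.14, adjusted p = 0.028). Slc2a8 was at 3.79 and 5.9 CPM in control, 5.42, 9.37 and 8.48 CPM in Nr5a2 KD, 7.69, 7.56 and 8.66 CPM in Klf5 KD and 11.3, 9.64, 10.7 and 8.86 CPM in dKD. Klf5 KD and dKD both lay above control without overlap, at 0.72 (SE 0.411, adjusted p = 0.635) and 1.09 (SE 0.353, adjusted p = 0.0811). With ERCC sizes, which raise the median of all genes, Slc2a3 (1.43, adjusted p = 0.0232) and Slc2a8 (1.89, adjusted p = 0.0172) were called in dKD against control. Slc2a1 never passed the filter, with 21 counts in Nr5a2 KD replicate 2 and at most 9 in any other library.

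Of the high transcripts, Slc7a6, Slc1a1 and Slc6a14 were not called by edgeR in any comparison, although with ERCC sizes Slc7a6 was called in dKD against control (1.11, adjusted p = 0.0435). Slc7a6 ranged from 41.3 to 48.8 CPM in control and from 46 to 66.7 CPM in the knockdown libraries, Slc1a1 from 55.4 to 66.2 and from 41.4 to 66.4 CPM, and Slc6a14 from 10.6 to 11.5 and from 2.95 to 16.2 CPM. The small neutral amino acid carrier Slc38a2 had 1.36 and 1.21 CPM in control, 3.14 to 3.77 CPM in Nr5a2 KD, 0.236 to 1.47 CPM in Klf5 KD and 2.24 to 4.11 CPM in dKD. Its libraries with Nr5a2 siRNA lay above all others, but edgeR called it in no comparison, at 1.90 (SE 0.618, adjusted p = 0.061) in dKD against Klf5 KD. DESeq2 called it there (1.91, adjusted p = 0.0219), as did edgeR with total counts, ERCC sizes or 1 fit over all libraries. With ERCC sizes edgeR also called it in dKD against control (2.09, adjusted p = 0.0313). Slc7a2, a cationic amino acid carrier, had 4.39 and 2.42 CPM in control, 0.827 to 1.06 CPM in Nr5a2 KD, 0.45 to 3.78 CPM in Klf5 KD and 0 to 2.55 CPM in dKD. Slc38a1, a glutamine carrier, ranged from 0.9 to 6.25 CPM over the 12 libraries. Slc38a9, the arginine sensor of the lysosome, was at 2 to 4.95 CPM with Nr5a2 siRNA and 0.294 to 1.89 CPM without it, also with no overlap. Of these 3 genes edgeR called none in any comparison, and only Slc38a9 passed under an alternative in dKD against Klf5 KD, with the mitochondrial covariate (2.09, adjusted p = 0.0426) and without Klf5 KD replicate 1 (2.94, adjusted p = 0.03), and in dKD against control with ERCC sizes (2.04, adjusted p = 0.0464).

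Across the 29 genes tested in both, the changes in Nr5a2 KD against control and in dKD against Klf5 KD had the same sign for 26 (89.7%), beside 71.5% of all 12393 genes tested in both. In Nr5a2 KD against control 7 of the 31 tested genes had 10 counts in every knockdown library but not in both controls, which favours a higher value there, so the count of 26 is a description only. Slc6a6, Slc6a8 and Slc3a2 were called in both comparisons, which is 60% of the transporter genes called in Nr5a2 KD against control and 50% of those called in dKD against Klf5 KD. Over all genes 613 were called in both, 58.8 and 44% of those called in each, so these shares of the transporter genes are near the background. The median change of the tested transporter genes was 0.41 in Nr5a2 KD, 0.45 in dKD against control and 0.39 in dKD against Klf5 KD, beside 0.04, 0.05 and 0.02 over all genes tested. Genes are not independent replicates, and genes that passed the filter through the knockdown libraries also raise such a median.

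**Figure D4:**
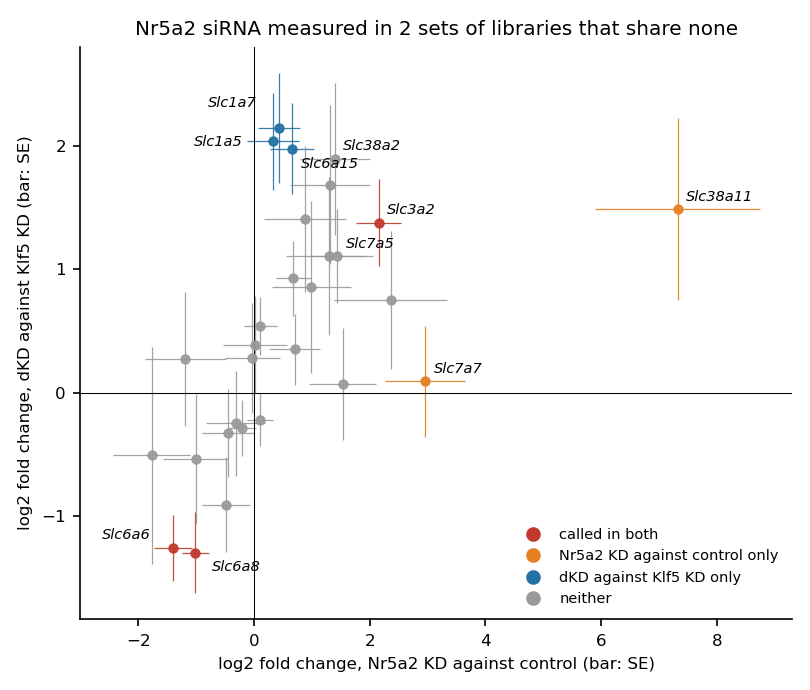
Log2 fold change of 29 transporter genes in Nr5a2 KD against control (horizontal) and in dKD against Klf5 KD (vertical), with bars of 1 SE, coloured by where the gene was called. Slc6a6 and Slc6a8 lie together at lower left and Slc3a2 at upper right, while Slc1a5, Slc1a7 and Slc6a15 are near 2 on the vertical axis and at 0.33 to 0.66 on the horizontal one. The horizontal place of Slc38a11, which has no control counts, depends on the fit and is no measure of size.

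For Klf5 KD against control edgeR called 0 of the 26 transporter genes tested and 0% of all 12838 genes tested, and DESeq2 also called none of the transporter genes. The share of all genes that DESeq2 called is not given, here or for dKD against Nr5a2 KD, so its counts of 0 have no background. At an unadjusted p under 0.05 there were 4 transporter genes, beside 1088 (8.47%) of all genes. They were Slc1a5 (-1.53, SE 0.458, adjusted p = 0.466) and Slc1a7 (-1.46, SE 0.479, adjusted p = 0.512), both lower, and Slc7a7 and the glutamate transporter Slc1a3 (1.94, SE 0.878, adjusted p = 0.575), both higher. Klf5 itself, at 24.5% of its control level in these libraries, had an adjusted p of 0.0996 by edgeR, the smallest of any gene. DESeq2 called Klf5 there (-2.03, adjusted p = 6.36e-07), and so did edgeR with no filter, 1 fit over all libraries or the block. In dKD against Nr5a2 KD, Slc1a5 and Slc1a7 differed by 0.19 and 0.27 (adjusted p = 0.999 for each), edgeR and DESeq2 called 0 of 30 transporter genes, and 0% of all 13017 genes were called by edgeR. There 2 transporter genes and 447 genes in all (3.43%) had an unadjusted p under 0.05.

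The 2 measures of Klf5 loss had the same sign for 11 of 26 transporter genes (42.3%), against 55.7% of all 11941 genes. A departure of dKD from the added effects of Nr5a2 KD and Klf5 KD was fitted over all 12 libraries. No transporter gene and 0% of 14830 genes had an adjusted p under 0.05 there. DESeq2 also called 0 transporter genes, and its share of all genes is not given. At an unadjusted p under 0.05 there were 6 transporter genes, beside 4.82% of all genes. Slc7a7 had the smallest adjusted p among them (-2.85, SE 0.766, adjusted p = 0.896), and Slc1a5 (1.73, SE 0.584) and Slc1a7 (1.74, SE 0.59) were at an adjusted p of 0.95, so a departure from additive effects is not shown for any of them.

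**Figure D5:**
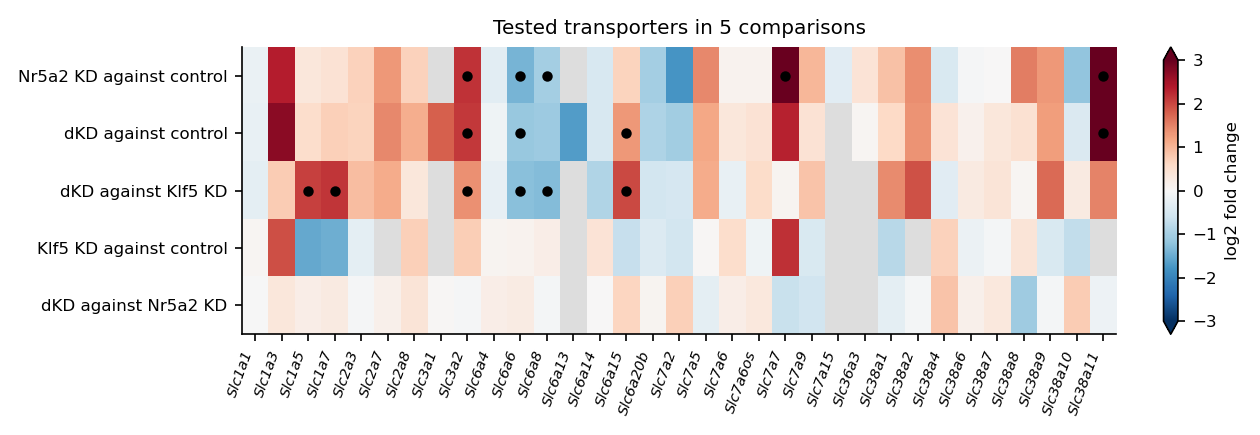
Log2 fold change of the 33 tested transporter genes in 5 comparisons, by colour from -3 (blue) to 3 (red), grey where a gene was not tested and with a dot where it was called, and with values past the scale at its end colour. All the dots are in Nr5a2 KD against control, dKD against control and dKD against Klf5 KD. The 2 comparisons that differ by Klf5 siRNA alone have none, and in each edgeR called 0% of all genes tested.

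Genes that work beside these transporters were described from fixed lists. Of 22 other carriers of sugars, monocarboxylates and amino acids, 9 or 10 were tested per comparison, and Mpc1, a subunit of the mitochondrial pyruvate carrier, was called lower in all 3 comparisons that remove Nr5a2. It was at 429 and 407 CPM in control, 139, 112 and 97.7 CPM in Nr5a2 KD, 292, 229 and 233 CPM in Klf5 KD, and 92.9, 39.9, 26.9 and 34.1 CPM in dKD, with changes of -1.83 (SE 0.22, adjusted p = 0.000781) in Nr5a2 KD and -3.08 (SE 0.385, adjusted p = 0.00177) in dKD against control. Its partner Mpc2 was called lower only in dKD against Klf5 KD (-1.19, SE 0.209, adjusted p = 0.00309), where Slc16a1, which carries lactate and pyruvate, was called higher at an adjusted p of 0.0499. Slc16a1 was at 17.4 and 16.9 CPM in control, 39.6, 45.5 and 21 CPM in Nr5a2 KD, 9.18, 12 and 13.4 CPM in Klf5 KD and 39.1, 69.2, 14.3 and 15.1 CPM in dKD. Its low values in Nr5a2 KD and dKD are those of the libraries with a mitochondrial share under 10%, and 2 dKD libraries lay below control.

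Of 15 genes of glucose retention and uptake control, 10 to 12 were tested and only Hk2, the hexokinase that traps glucose as its phosphate, was called. It was at 12.9 and 15.2 CPM in control, 52.4, 38.8 and 34.8 CPM in Nr5a2 KD, 18.9, 6.02 and 12 CPM in Klf5 KD, and 47.9, 47.9, 34.6 and 30.5 CPM in dKD. It rose by 1.60 (SE 0.279, adjusted p = 0.00516) in Nr5a2 KD and 1.55 (SE 0.283, adjusted p = 0.00829) in dKD against control, and by 1.71 (SE 0.359, adjusted p = 0.00801) in dKD against Klf5 KD.

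Of 19 genes of the amino acid starvation response, 14 to 16 were tested. Chac1, a glutathione-degrading enzyme induced in that response, had 0.152 and 0.134 CPM in control, or 1 count in each library, 1.63 to 6.6 CPM in Nr5a2 KD, at most 0.54 CPM in Klf5 KD and 1.52 to 3.54 CPM in dKD, and was called higher with adjusted p-values of 0.0136, 0.0182 and 0.0206 in Nr5a2 KD against control, dKD against control and dKD against Klf5 KD. With so few counts in control and Klf5 KD, Chac1 was tested only through the libraries with Nr5a2 siRNA, which favours a higher value. Eif2ak4, which encodes the kinase GCN2 that senses uncharged tRNA, rose in dKD against control (1.43, SE 0.4, adjusted p = 0.0491) and against Klf5 KD (3.26, SE 0.427, adjusted p = 0.00063). Klf5 KD was the low group for Eif2ak4, at 0.827 to 1.17 CPM against 4.24 and 3.49 CPM in control, a difference that was not called (-1.85, SE 0.617, adjusted p = 0.512). Cebpg fell in dKD against control (-1.02, SE 0.195, adjusted p = 0.00968). Psph, an enzyme of serine synthesis, fell in dKD against Klf5 KD (-1.40, SE 0.272, adjusted p = 0.00523). Neither fall was confined to dKD. Cebpg was at 64.9 to 88.3 CPM with Nr5a2 siRNA and 123 to 168 CPM without it. Psph was at 6.89 to 12.2 CPM with it and 17.2 to 26.9 CPM without. In Nr5a2 KD against control Cebpg (adjusted p = 0.0157) stayed under 2-fold. Psph was not called there either (-1.03, adjusted p = 0.0526). Cebpg was -0.89 (adjusted p = 0.0142) in dKD against Klf5 KD. Psph was -0.95 (adjusted p = 0.0764) in dKD against control. Atf4, the central factor of the response, was at 96.8 and 114 CPM in control and 69.5 to 138 CPM in the knockdown libraries and was not called. The median of the list was 0.04 in Nr5a2 KD and 0.01 in dKD against control. Of 33 genes of amino acid sensing to mTORC1, 31 were tested and 1 was called, Rragc, a GTPase of that pathway, higher in dKD against Klf5 KD (1.35, SE 0.367, adjusted p = 0.0282).

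Promoters of 54 of the 73 genes were found in RefSeq (GRCm38.p6), 74 in all, each from 250 bases before to 50 bases after the annotated start. Slc6a6, Slc6a8, Slc1a5 and Slc6a15 were among the 19 genes not matched. Each was searched on both strands for 7-base words, AAGGTCA for the nuclear receptor Nr5a2 and GGGTGTG and GGGCGTG for Krüppel-like factors, none of which contains another. AAGGTCA was present in 3 of the 74 (4.05%) and in 4.72% of all 32851 promoters. GGGTGTG was present in 6 (8.11%) against 7.95% of all, and GGGCGTG in 3 (4.05%) against 8.44%. Of the 4 called genes with a promoter, Slc7a7, Slc38a11 and Slc1a7 held none of the words, and Slc3a2 held GGGTGTG on the opposite strand, at bases 9 to 15 after the start. That start lies inside the gene as the GENCODE M21 annotation draws it. The windows of Slc3a2, the called gene with a word, of the glucose transporters Slc2a1 and Slc2a2 and of Slc6a13, a carrier of taurine and GABA with words of both kinds, are shown on the strand of the gene, with the word or its reverse complement in capitals. Such a match is a description of the sequence and not a binding site.
Slc3a2, chr19:8713873-8713899, minus strand: tccccgccgcCACACCCgcccagcggc
Slc2a1, chr4:119108591-119108617, plus strand: gggtgccccgCACACCCtgggactgca
Slc2a2, chr3:28697871-28697897, plus strand: ttctgttaaaAAGGTCAgaactacctc
Slc6a13, chr6:121303405-121303431, plus strand: tcataatcttTGACCTTcatggctttc
Slc6a13, chr6:121303561-121303587, plus strand: agggaatttcCACACCCctgtgggaag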

How the data were processed

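The transporter genes and gene lists were chosen with earlier results of these data known. Per the submitters' processing notes and the file headers, the authors trimmed reads with Trim Galore 0.6.2, aligned them with STAR to GRCm38, to which the ERCC spike-ins and H2B-EGFP were joined, and used featureCounts 2.0.1 without strand, a read over several genes being split between them. What they deposited are estimated counts, not normalized, which were rounded before testing. The labels allow for 2 sequencing platforms without saying which library ran on which, while the study's methods name a single one for RNA-seq, so platform was not entered in a fit.

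Genes were named from GENCODE M21 (55141 of 55401). EdgeR 4.0.16 in R 4.3.3 (filterByExpr with min.count 10 and min.total.count 15, TMM factors, glmQLFit and glmQLFTest) was fitted on the libraries of each comparison, with Benjamini-Hochberg adjustment over all genes tested. Calls needed a change of 2-fold with its adjusted p under 0.05. The departure from additivity was fitted over 12 libraries, with no fold minimum. TPM used the gene lengths in the files. The code was tested on simulated data. Libraries are separate pools, but nothing says that they came from separate litters, so p-values measure the spread between these pools. Amplification without molecular identifiers means that limits from counts cover counting error only.

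The named genes were the 2 targets, each called transporter, the 15 highest in control and a fixed set of well-known carriers. Other transporters given with values, such as Slc1a3, Slc6a13, Slc7a3 and Slc2a4, were chosen after their values were seen. Alternatives were DESeq2 1.42.0, its size factors, total counts or ERCC counts as library sizes, no filter, no fold minimum, 1 fit over all libraries, the replicate number as a block, the mitochondrial share as a covariate and each library left out. Libraries with at least 10% mitochondrial counts were added after seeing the data. Replicates 1 to 3 of Nr5a2 KD and dKD deviated together from their group means (correlations of 0.13, 0.221 and 0.254), over the 0.1 set for pairing, so the numbers were taken to pair those libraries. The correlation of dKD replicate 4 with Nr5a2 KD replicate 3, both low in mitochondrial share, was as high (0.264), and the part of that share was not tested. The block changed no call in that comparison. Figures were drawn with matplotlib 3.10.9.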

Additional observations from a re-analysis of the deposited data

How the results depend on the processing

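Of 185 recomputed counts of called or detected genes 144 stayed within 1.5 times the value reported and 41 did not. The 144 include counts of 0 that stayed at 0 in Klf5 KD against control, dKD against Nr5a2 KD and the departure from additivity. In those fits edgeR called 0% of all genes, so the tally is no measure of how stable the calls are. For single genes 562 of 654 recomputed values kept direction and side of the threshold, 60 fell below it, 27 rose above it and 5 changed sign. The genes lower in Nr5a2 KD (2) were 1 with total counts, with 1 fit over all libraries, with the replicate block and among libraries with at least 10% mitochondrial counts, and 0 with ERCC library sizes and with the mitochondrial covariate. The gene lower in dKD against control (1) became 2 with DESeq2, no filter or 1 fit over all libraries, and 0 with total counts, ERCC sizes, the block, the covariate and libraries at 10% or more. The genes higher there (3) were 5 with DESeq2 (Slc7a7 and Slc1a3 added, Slc1a3 at 2.71, adjusted p = 0.0246), no filter or the block, 13 with ERCC sizes and 1 among libraries at 10% or more. In dKD against Klf5 KD the higher genes (4) were 7 with total counts, and the lower genes (2) were 0 with ERCC sizes, with the block and among libraries at 10% or more, where 1 Klf5 KD library is left. At 1 TPM in place of 1 CPM 15 genes were detected in control, and with 1 control library alone 25 or 30.

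ERCC sizes moved the median of all genes to 0.82 in Nr5a2 KD, 0.66 in Klf5 KD and 0.84 in dKD against control, and total counts to 0.15, -0.04 and 0.20. With ERCC sizes Slc6a8 (-0.26) and Slc6a6 (-0.73) in Nr5a2 KD were below that shift but not called, and Slc3a2 (2.99, adjusted p = 0.0129) was called. With 1 library left out in turn, the lower genes ranged from 0 to 2 and the higher ones from 0 to 3 in Nr5a2 KD and in dKD against control, and from 1 to 2 and from 3 to 5 in dKD against Klf5 KD. Without control replicate 1 or 2, Slc6a6, Slc6a8, Slc7a7 and Slc38a11 were no longer called in Nr5a2 KD, nor Slc6a6, Slc6a15 and Slc38a11 in dKD, where Slc6a6 was also lost without dKD replicate 3 or 4 and Slc6a15 without dKD replicate 2, 3 or 4. The lone control is then assumed to vary like the other groups. In Nr5a2 KD Slc6a8 was also lost without Nr5a2 KD replicate 2 or 3 and Slc7a7 without replicate 3 or with the block (2.45, adjusted p = 0.0509). In dKD against Klf5 KD Slc6a8 was lost without Klf5 KD replicate 1 or 2 or dKD replicate 2 or 4, and Slc3a2 without Klf5 KD replicate 2 (1.12, adjusted p = 0.13) or 3 or dKD replicate 3, with ERCC sizes and with the block (1.53, adjusted p = 0.0596). The counts for Klf5 KD against control, dKD against Nr5a2 KD and the departure from additivity stayed at 0 under every alternative run. Slc1a5 turned in Nr5a2 KD to -0.12 with the block, -0.25 with the covariate and -0.11 among libraries at 10% or more. In Nr5a2 KD against control that limit drops replicate 3 alone. It is there the same fit as the one without replicate 3, although both are counted above. In dKD against Nr5a2 KD without Nr5a2 KD replicate 1, Slc1a5 turned to -0.08. With 1 library left out its ranges were -0.11 to 0.62 and -0.08 to 0.63. The cause was not tested.

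Except in dKD against Nr5a2 KD, the replicate numbers do not pair the libraries. Same-numbered libraries of Klf5 KD and dKD correlated at -0.117, 0.0406 and -0.158, and those of control with the others at -0.0329 to 0.0473. Too few counts for the filter left 40 transporter genes untested, 7 of them at 0 in all 12 libraries.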

Other observations

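Of the 40 transporter genes never tested, 7 (Slc2a6, Slc2a10, Slc6a11, Slc6a18, Slc7a10, Slc7a12 and Slc7a13) had no count in any of the 12 libraries, and 8 reached 10 counts in at least 1 library. Of those 8, 6 did so in a single library. Slc7a3, a cationic amino acid carrier, had 13 counts in dKD replicate 2, 3 in Klf5 KD replicate 2 and none elsewhere. Slc2a1 had 21 of its 39 counts in Nr5a2 KD replicate 2, and Slc2a4, the insulin-responsive glucose transporter, 11 of its 23 in the same library. Slc2a2 had 6 counts in dKD replicate 2 alone, and Slc7a1 6 in dKD replicate 1 alone.

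Slc6a13, a carrier of taurine and GABA, was at 5 and 19 counts in control, 12, 6 and 9 in Klf5 KD, 0 in all 3 Nr5a2 KD libraries and 12, 0, 4 and 0 in dKD. It did not pass the filter on low counts in Nr5a2 KD against control. Without that filter it was called lower there (adjusted p = 0.00555), while with the filter it was tested in dKD against control and not called (adjusted p = 0.443). Like Slc6a6 it was low in the libraries with Nr5a2 siRNA, but dKD replicate 1 held 12 counts, within the control range.

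Slc6a9, the glycine transporter, had 0.675 to 0.866 CPM in the 3 Klf5 KD libraries and 0.059 to 0.315 CPM in the 9 others. It was tested in no comparison, its highest count was 7.5, and its exons share 30.2% of their bases with other genes.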
